A study of Mus musculus with 18 samples.

Results

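The cytosolic ribosome is built from ribosomal RNA and a fixed set of proteins of the small subunit (40S, genes named Rps) and the large subunit (60S, genes named Rpl). The acidic stalk proteins Rplp0, Rplp1 and Rplp2 sit on the large subunit and recruit translation factors. Most of these mRNAs begin with a run of pyrimidines at the cap, the terminal oligopyrimidine tract, through which the mTORC1 kinase controls their translation, and liver makes them in large amounts because it secretes much of the plasma protein. Their levels were described here in the liver of 18 male C57BL/6 mice.

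The genes were chosen by symbol, as rows named Rps or Rpl with a number or as Rpsa, Rplp0, Rplp1 or Rplp2, without S6 kinases and symbols marked as pseudogenes (-ps), and by a mean level of 0.5 RPKM or more (reads per kilobase of transcript, scaled to the reads mapped in the library) over the 18 mice. Of 85 matching symbols, 81 passed, out of 25266 genes listed. They comprise 31 genes of the 40S subunit, 43 of the 60S subunit, the 3 stalk genes and 4 paralogs, which are copies related to a core gene, namely Rps27l, Rpl22l1, Rpl7l1 and Rps4l. The lowest of those inside the limit were Rpl34 (2.37 RPKM), Rpl30 (3.71) and Rpl29 (3.99), and the 4 outside it were Rpl32l (0.49), Rpl3l (0.06), Rpl39l (0.03) and Rpl10l (0.00).

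FF mice carried floxed Ppp6r3 alleles (Ppp6r3 fl/fl), and LKO mice carried the same floxed alleles with Alb-Cre, a Cre recombinase driven by the albumin promoter and therefore active in hepatocytes, while other liver cells keep the gene. Ppp6r3 encodes SAPS3, a regulatory subunit of protein phosphatase 6. For 16 weeks from young adult age, the mice ate either a control diet (CD) with 10 kcal% fat or a high-fat diet (HFD) with 32.5 kcal% fat. The groups were 4 FF CD, 4 LKO CD, 5 FF HFD and 5 LKO HFD mice, and each table was 1 mouse. Depth, read from the steps between low RPKM values, was 23.4 to 37.0 M reads per mouse. Ppp6r3 lay at 7.55 to 10.98 RPKM in the 9 FF mice and at 3.88 to 4.87 RPKM in the 9 LKO mice, without overlap. The defining markers of hepatocytes were present in all mice, and no marker of the cell types examined was at 0 throughout a group.

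The letters around the start sites of some of these genes are shown because the pyrimidine run is the feature by which the family is best known. Sequences are from RefSeq on GRCm38.p6, 5′ to 3′ on the strand of the gene, from 10 bases before the annotated start, with the run in capitals. A run was a C followed by at least 5 bases that were each C or T, beginning within 10 bases of the start on the gene's own strand. Of the 60 members with a RefSeq start, 33 (55.0%) held a run near the start, against 23.4% of the 8864 tested genes with one, and 11 (18.3%) held it exactly at the start, against 2.12%.
Rpl28, chr7:4792955-4792984, plus strand: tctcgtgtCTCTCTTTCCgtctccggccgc
Rpl27a, chr7:109519185-109519214, plus strand: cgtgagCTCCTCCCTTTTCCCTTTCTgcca
Rps18, chr17:33955646-33955675, minus strand: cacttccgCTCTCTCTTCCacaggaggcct
Rps27, chr3:90213629-90213658, minus strand: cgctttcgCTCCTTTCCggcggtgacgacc
Rpl12, chr2:32961702-32961731, plus strand: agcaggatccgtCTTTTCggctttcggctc
Rpl22l1, chr3:28805498-28805527, plus strand: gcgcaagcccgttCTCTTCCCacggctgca
Rpl10, chrX:74270806-74270835, plus strand: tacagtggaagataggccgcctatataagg
Rplp0, chr5:115559457-115559486, plus strand: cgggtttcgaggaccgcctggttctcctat

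The first 6 hold the run and the last 2, for the most abundant 60S gene and a stalk gene, do not. A match is only a description of these letters, and its absence says only that they are not in this window.

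The members were among the more abundant transcripts of the liver. Their mean RPKM had a median of 114 and a range from 2.37 to 340. The highest were Rpl10 (340), which joins the 60S subunit late in assembly, Rpl28 (282), Rpl41 (262), which encodes a very short peptide, Rps3a1 (238) and Rps18 (235). A low value need not be a low mRNA level, since the median member shared 50.8% of its 50-base windows with another annotated gene, and processed copies are common in this family, while how the authors treated such reads is not given in the sources used here. The shared portion reached 98.6% for Rps27. The transcripts were short, with a median of 772.5 bases against 2599.5 for all tested genes.

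The share of the members in the summed RPKM of each mouse was lower in FF mice on HFD than in FF mice on CD. It was 2.70%, 2.68%, 3.03% and 2.94% in the FF CD mice and 2.52%, 2.46%, 2.23%, 2.21% and 2.51% in the FF HFD mice. These groups did not overlap. The LKO CD mice had 3.04%, 2.81%, 2.65% and 2.90%, and the LKO HFD mice had 2.64%, 3.11%, 2.44%, 2.31% and 2.50%. The LKO groups overlapped, because LKO HFD mouse 2 had the highest share of all 18 mice. The means were 2.84% ± 0.174 (SD, n = 4) in FF CD, 2.85% ± 0.160 (SD, n = 4) in LKO CD, 2.39% ± 0.152 (SD, n = 5) in FF HFD and 2.60% ± 0.309 (SD, n = 5) in LKO HFD.

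**Figure D1:**
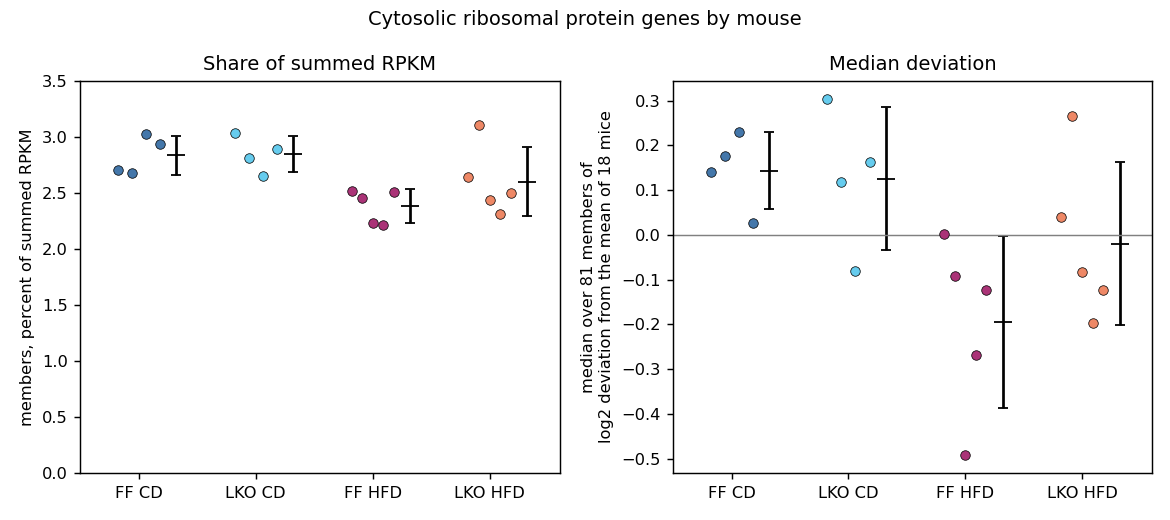
Left, the 81 members as percent of the summed RPKM; right, the median over members of the log2 deviation from the mean of 18 mice. Points are mice by group, and the bars beside them are the mean and SD. In the left panel the FF HFD mice (2.21% to 2.52%) all lie below the FF CD mice (2.68% to 3.03%), while the LKO groups overlap.

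Mice of 1 group differed as a whole in these genes. The median deviation of the members in a mouse had a pooled SD within groups of 0.16 on the log2 scale. Members thus moved together by mouse, and counts over the 81 are not counts of independent results. The lowest of all 18 mice was FF HFD mouse 3 for 58 of the 81 members and FF HFD mouse 4 for another 17. LKO CD mouse 1 held the highest value for 37 members and LKO HFD mouse 2 for 23. In FF CD, LKO CD and FF HFD, 1 mouse had the lowest summed RPKM over all genes (338566, 344503 and 312292). It also had the lowest sum over the members. With each mouse scaled to the same summed RPKM, the members' median log2 change in FF mice on HFD was -0.25, against -0.34 as deposited. For LKO against FF mice on HFD the median was 0.12, against 0.18 as deposited. The summed 60S genes exceeded the summed 40S genes by 1.27 to 1.37 times in every mouse, with group means of 1.31 in FF CD, 1.30 in LKO CD, 1.31 in FF HFD and 1.30 in LKO HFD.

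**Figure D2:**
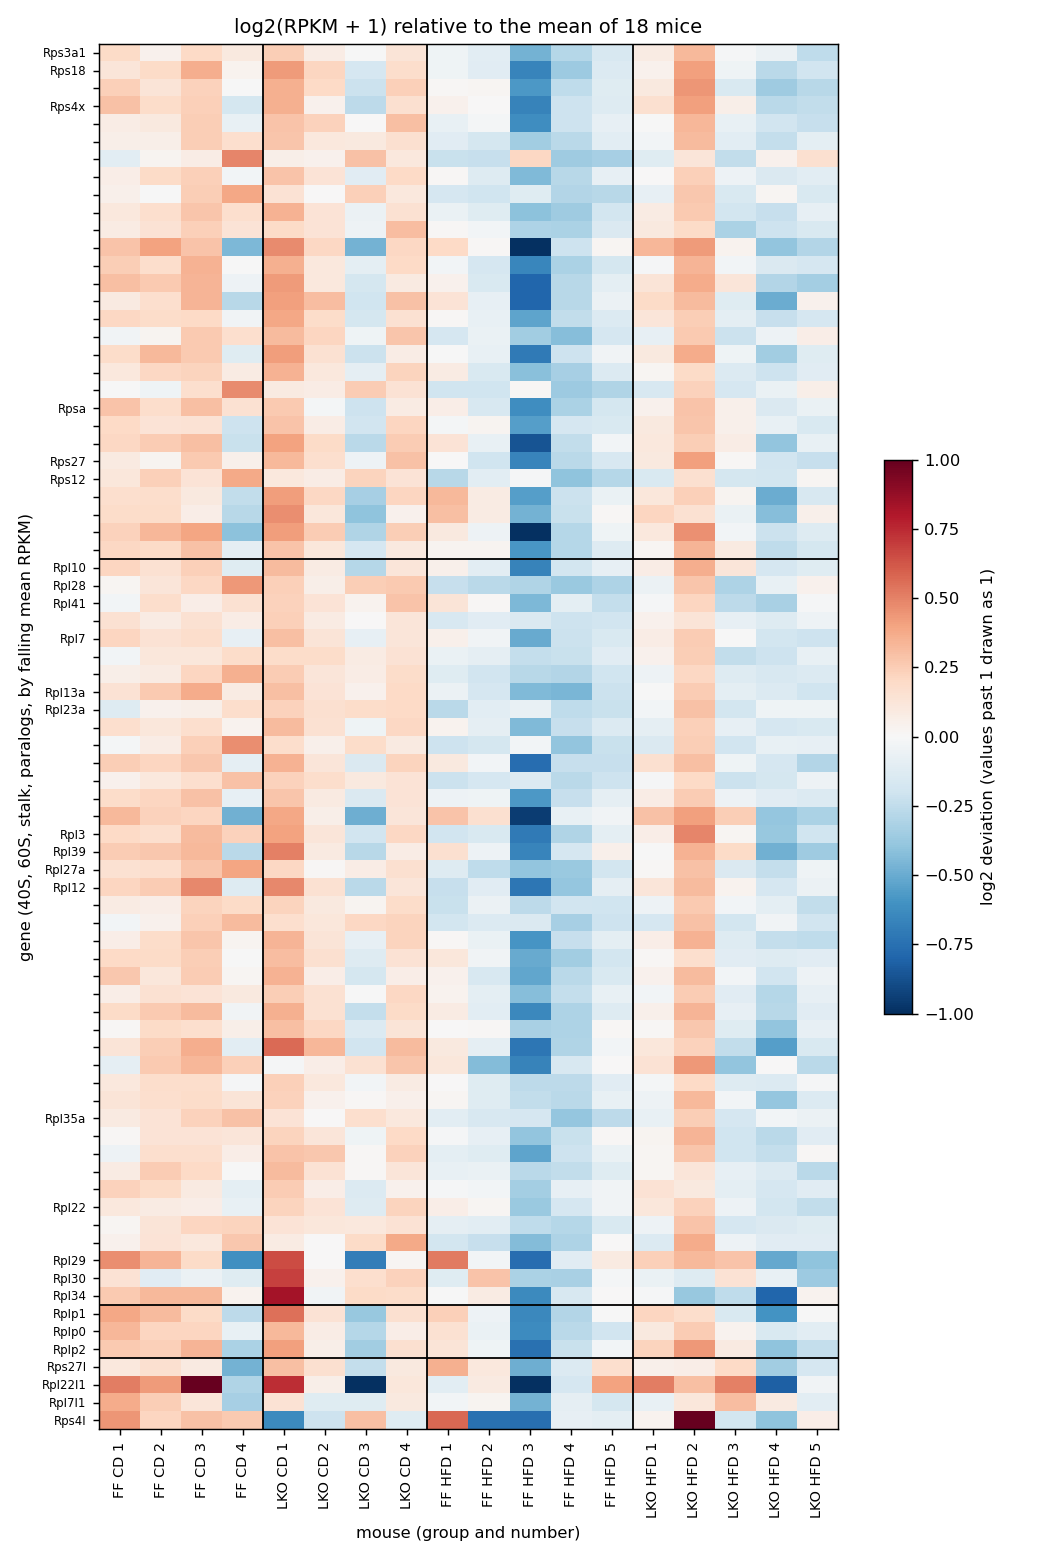
Each row is 1 of 78 members (labelled where the text names them), each column 1 mouse, and the colour is the log2 deviation of RPKM + 1 from the mean of 18 mice (red higher, blue lower). Black lines separate groups and the 40S, 60S, stalk and paralog genes. FF HFD mouse 3 is the bluest column, and LKO CD mouse 1 and LKO HFD mouse 2 are the reddest.

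In FF mice, many members were lower on HFD than on CD, each by a modest amount. The planned rule joined a fold above 1.5 with an adjusted p under 0.05 from limma on log2(RPKM + 1). The fit covered the 11090 genes whose mean reached 0.5 RPKM. The adjusted p alone was a limit added after seeing the data, and genes said below to pass the test passed that limit. No member passed both limits (all genes 6.6%). At the adjusted p alone, 30 of 81 members (37.0%) were lower on HFD, where 4.79% of all tested genes were, and none was higher, where 15.8% were. At an unadjusted p under 0.05, 56 members were lower (all genes 8.68%) and 0 were higher (all genes 25%). The estimate was below 0 for 80 of 81 (all genes 36.8%), with a median of -0.34 against 0.07 over all tested genes. The values of all 5 FF HFD mice lay below those of all 4 FF CD mice for 33 members (all genes 4.24%). Of the 30, 11 were 40S genes and 19 were 60S genes. The fall of the 30 ranged from 16.6% to 30.1%. The number lower at the adjusted p was 12 without FF CD mouse 3 (all genes 2.78%), 19 without FF HFD mouse 3 (all genes 3.45%) and 17 without FF HFD mouse 4 (all genes 3.75%). Scaling each mouse to the same summed RPKM made it 22 (all genes 3.71%). Centring each mouse on its median gene made it 60, and also raised the share of all tested genes called lower to 11.3%. The median stayed between -0.38 and -0.26 when any 1 mouse was left out. In bulk liver, fewer cells of a type and less RNA per cell cannot be told apart.

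Rpl28, a protein of the 60S subunit and second in abundance, was one of the clearest. It measured 281, 303, 322 and 376 RPKM in the FF CD mice and 238, 230, 226, 215 and 225 in the FF HFD mice. All FF HFD values lay below all FF CD values, at means of 321 ± 40.3 (SD, n = 4) and 227 ± 8.11 (SD, n = 5). The log2 change was -0.49 (SE 0.11) with an adjusted p of 0.00405, and it stayed past the adjusted p under every alternative examined. In the LKO CD mice it measured 329, 290, 331 and 334, and in the LKO HFD mice 268, 338, 224, 264 and 287. The LKO groups overlapped, with a log2 change of -0.23 (SE 0.11, adjusted p = 0.225).

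Rpl27a, a 60S gene, had the lowest adjusted p of all members and was singled out after its values were seen. It measured 134, 135, 146 and 159 RPKM in the FF CD mice against 109.9, 100.6, 91.1, 92.9 and 106.0 in the FF HFD mice. The 2 groups were clear of each other, with a log2 change of -0.51 (SE 0.10, adjusted p = 0.00194). The LKO CD mice had 139.0, 121.0, 126.4 and 134.7 and the LKO HFD mice 121, 148, 109, 102 and 116, which overlap. The members next in order of adjusted p, chosen in the same way, were Rpl35a (log2 change -0.41, adjusted p = 0.00370), Rps12 (-0.43, adjusted p = 0.00422) and Rpl13a (-0.48, adjusted p = 0.00485).

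Rpl3, a large 60S protein close to the peptidyl transferase centre, had the deepest fall of those past the adjusted p. Its values were 146, 144, 159 and 150 RPKM in FF CD and 111, 115, 77.8, 103 and 119 in FF HFD. They did not overlap, and the log2 change was -0.52 (SE 0.16, adjusted p = 0.0262). In the LKO CD mice it was at 169, 138, 112 and 147, and in the LKO HFD mice at 133, 179, 129, 97.7 and 111. These overlapped, with a log2 change of -0.14 (SE 0.16). Without FF CD mouse 3 or FF HFD mouse 3, Rpl3 no longer passed in FF mice, with log2 changes of -0.49 and -0.41.

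Rpl12, which helps to form the base of the stalk, had 130, 134, 156 and 102 RPKM in FF CD and 95.2, 104, 67.4, 85.2 and 105 in FF HFD. Only FF CD mouse 4 reached into the range of the FF HFD mice. The log2 change was -0.51 (SE 0.16, adjusted p = 0.0292), and it missed the threshold without FF CD mouse 1, 2 or 3 or FF HFD mouse 3 or 4, at -0.42 and -0.41 without the number 3 mice of FF CD and FF HFD. Its LKO CD values were 157, 125, 92.7 and 122, and its LKO HFD values 122, 140, 115, 99.6 and 107. Those groups lay across the same range, at a log2 change of -0.07 (SE 0.16).

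Among the 40S genes, Rps18, which lies in the head of the subunit, had 251, 264, 296 and 236 RPKM in FF CD against 223, 213, 146, 179 and 210 in FF HFD, with no overlap. The log2 change was -0.44 (SE 0.15, adjusted p = 0.0472), close to the threshold, and it did not pass in 12 of the 27 alternatives. Rps3a1, another protein of the 40S subunit, had 268.8, 242.1, 270.3 and 252.6 RPKM in FF CD against 229, 219, 170, 193 and 211 in FF HFD. These groups were also apart, with a log2 change of -0.34 (SE 0.11, adjusted p = 0.0358), which was lost in 5 of the 27 alternatives. The most abundant member, Rpl10, had 389, 373, 395 and 308 in FF CD and 348, 311, 211, 295 and 316 in FF HFD, which overlap, and its log2 change of -0.32 (SE 0.15) had an adjusted p of 0.146. Rpl41 and Rpl23a did not pass either, with log2 changes of -0.22 each and adjusted p of 0.224 and 0.106.

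The stalk genes did not pass the test, although all 3 estimates were below 0. Rplp0, the stalk's anchor on the ribosome, had 173, 160, 160 and 131 RPKM in FF CD and 153, 131, 88.6, 114 and 120 in FF HFD. The groups overlapped in part, with a log2 change of -0.37 (SE 0.15, adjusted p = 0.0779). Rplp1 and Rplp2, which bind to it as dimers, had log2 changes of -0.31 (SE 0.21) and -0.31 (SE 0.20), with adjusted p of 0.308 and 0.295. Rplp1 was at 191 ± 35.7 RPKM (SD, n = 4) in FF CD and 155 ± 34.3 (SD, n = 5) in FF HFD, so the spread of the mice was about as wide as the difference.

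None of the 4 paralogs passed the test. Rpl22l1, a paralog of Rpl22, had 43.4, 40.8, 62.5 and 24.3 RPKM in FF CD and 28.02, 32.1, 7.21, 26.8 and 40.3 in FF HFD, and its pooled SD within groups, 0.74 on the log2 scale, was the largest of all members, whose median was 0.19. Its log2 change of -0.75 (SE 0.44) was the largest estimate of all members and had an adjusted p of 0.246. In LKO CD it had 51.0, 31.4, 11.4 and 32.7, and in LKO HFD 43.5, 37.3, 43.1, 16.7 and 29.4. Rpl22 was steadier, at 33.6, 33.2, 32.8 and 29.7 in FF CD and 32.8, 31.6, 23.9, 27.6 and 30.5 in FF HFD, with a log2 change of -0.14 (SE 0.11). Rpl22l1 and Rpl22 were of like size, and the ratio of the 2 ran from 0.302 to 1.91 in FF mice.

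Rps27l, a paralog of Rps27 that responds to p53, was the only member with an estimate above 0 in FF mice, at 0.03 (SE 0.17). It had 161, 167, 159 and 107 RPKM in FF CD and 192, 161, 106, 136 and 168 in FF HFD, ranges that overlap fully. Rps27 had 69.0, 66.2, 77.8 and 67.3 in FF CD and 65.1, 56.4, 40.8, 53.6 and 58.0 in FF HFD, which do not overlap, with a log2 change of -0.36 (SE 0.14) and an adjusted p of 0.0680. The ratio of Rps27l to Rps27 was 1.59 to 2.53 in FF CD, 2.54 to 2.94 in FF HFD, 1.999 to 2.28 in LKO CD and 1.81 to 2.63 in LKO HFD. It was thus above every FF CD mouse in each FF HFD mouse, with 2.53 and 2.54 at the edge. Nearly all of Rps27, 98.6% of its 50-base windows, is shared with other annotated genes, so its level is uncertain.

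The other paralogs were low. Rps4l, a copy of Rps4x on chromosome 6, had 10.8, 9.08, 9.62 and 9.39 RPKM in FF CD and 11.9, 4.16, 4.13, 7.20 and 7.08 in FF HFD, where 4 of 5 mice lay below every FF CD mouse and 1 above. Its log2 change was -0.53 (SE 0.27, adjusted p = 0.189). The annotation used held no protein-coding transcript of Rps4l. Neither a transcript length nor a share of 50-base windows was therefore available for it, and its overlap with Rps4x was not measured. Rps4l had 16.9 RPKM in LKO HFD mouse 2 and 5.54 to 8.08 in the other LKO HFD mice. Rpl7l1, a paralog of Rpl7 that takes part in ribosome assembly, had means of 17.96 ± 3.73 (SD, n = 4) in FF CD and 14.8 ± 2.02 (SD, n = 5) in FF HFD, with a log2 change of -0.25 (SE 0.13, adjusted p = 0.194). Rps4x and Rpl7 stood at -0.33 and -0.28 with adjusted p of 0.181 and 0.113, and Rpl39 at -0.28 with an adjusted p of 0.347.

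**Figure D3:**
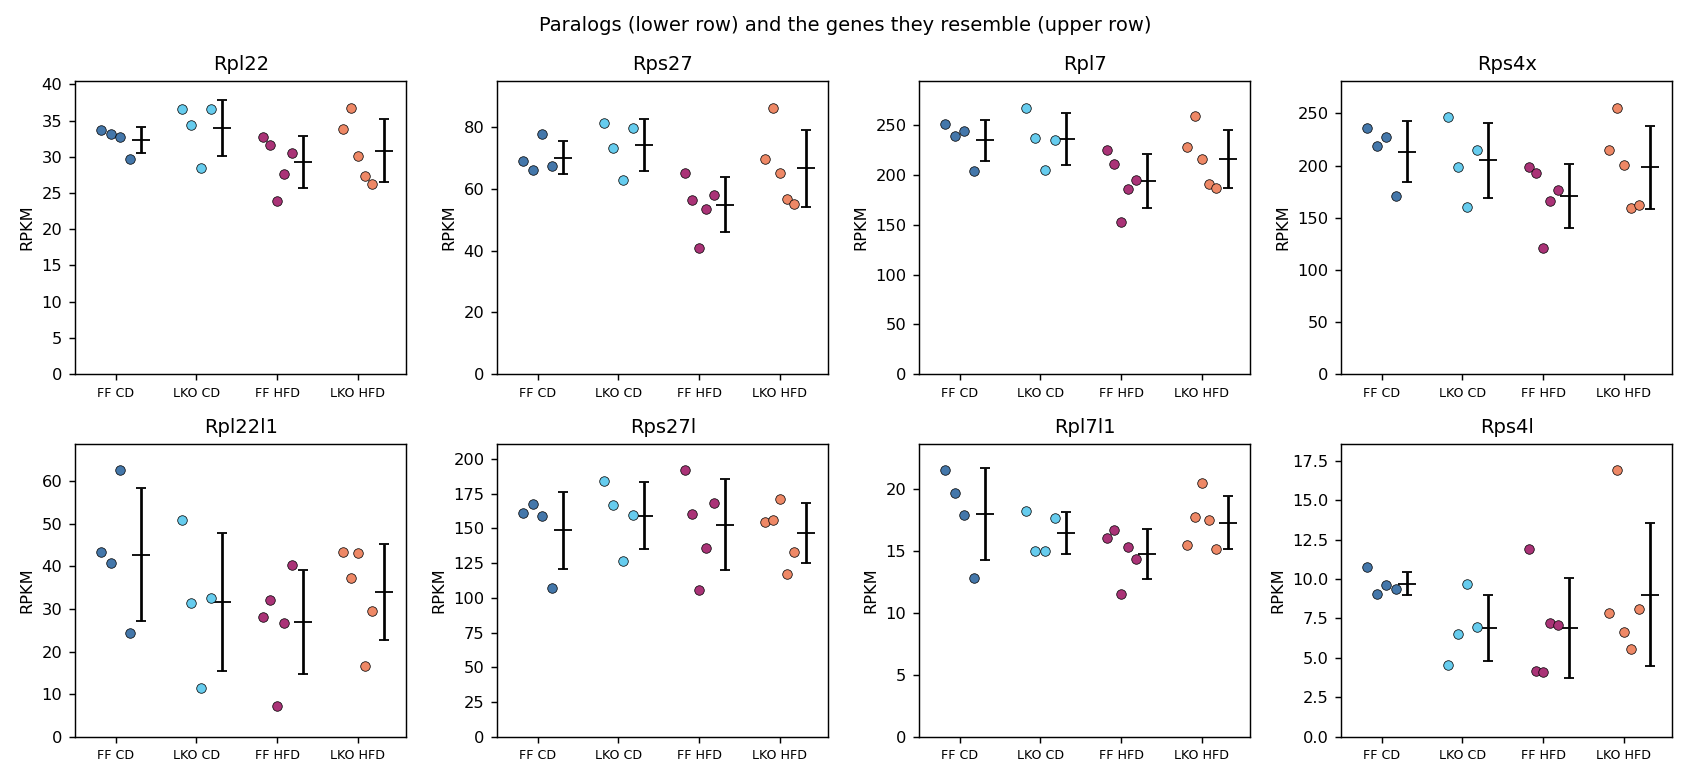
RPKM of 4 paralogs (lower row) and the genes they resemble (upper row), with 1 point per mouse and the mean and SD of each group beside the points. Rpl22l1 and Rps4l spread widely within groups (Rps4l 4.13 to 11.9 in FF HFD), and Rps27 but not Rps27l has FF HFD mice all below the FF CD mice.

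The lowest members were measured least well. Rpl34 had 2.93, 3.08, 3.10 and 2.34 RPKM in FF CD, 2.26, 2.47, 1.104, 1.92 and 2.27 in FF HFD, 4.83, 2.19, 2.72 and 2.72 in LKO CD and 2.25, 1.51, 1.74, 0.887 and 2.34 in LKO HFD. Its log2 change was -0.38 (SE 0.18, adjusted p = 0.155) in FF mice and -0.57 (SE 0.18, adjusted p = 0.0802) in LKO mice, the deepest of the members there. LKO CD mouse 1 was the highest of its group for Rpl34, Rpl30 (6.44 against 3.78 to 4.43) and Rpl29 (6.53 against 1.97 to 3.86). Rpl29 and Rpl30 changed by -0.15 (SE 0.28) and -0.06 (SE 0.14) in FF mice, neither past the test. Of their 50-base windows, Rpl34 shared 37.9%, Rpl30 47.8% and Rpl29 66.6% with other annotated genes, and low mRNA and reads assigned to copies cannot be told apart.

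In LKO mice the estimates for the same diets were closer to 0 at the median. No member passed the adjusted p (all genes 4.05% in either direction) or the fold as well (1.27%). At an unadjusted p under 0.05, 9 members were lower (11.1%, all genes 4.19%), with Rpl34 and Rpl30 the deepest. The estimate was below 0 for 76 of 81 members (all genes 34.2%), and the median was -0.16 against 0.07 for all tested genes. Omitting single mice moved this median in both directions. It fell to -0.24 once LKO HFD mouse 2 was dropped and rose to -0.11 once LKO CD mouse 1 was. No member had all LKO HFD mice below all LKO CD mice (all genes 1.33%). The highest estimates were those of the paralogs Rps4l, at 0.28 (SE 0.27), and Rpl22l1, at 0.20 (SE 0.44). The estimate was lower in FF than in LKO mice for 75 of 81 members and for 5405 of the 11090 tested genes.

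**Figure D4:**
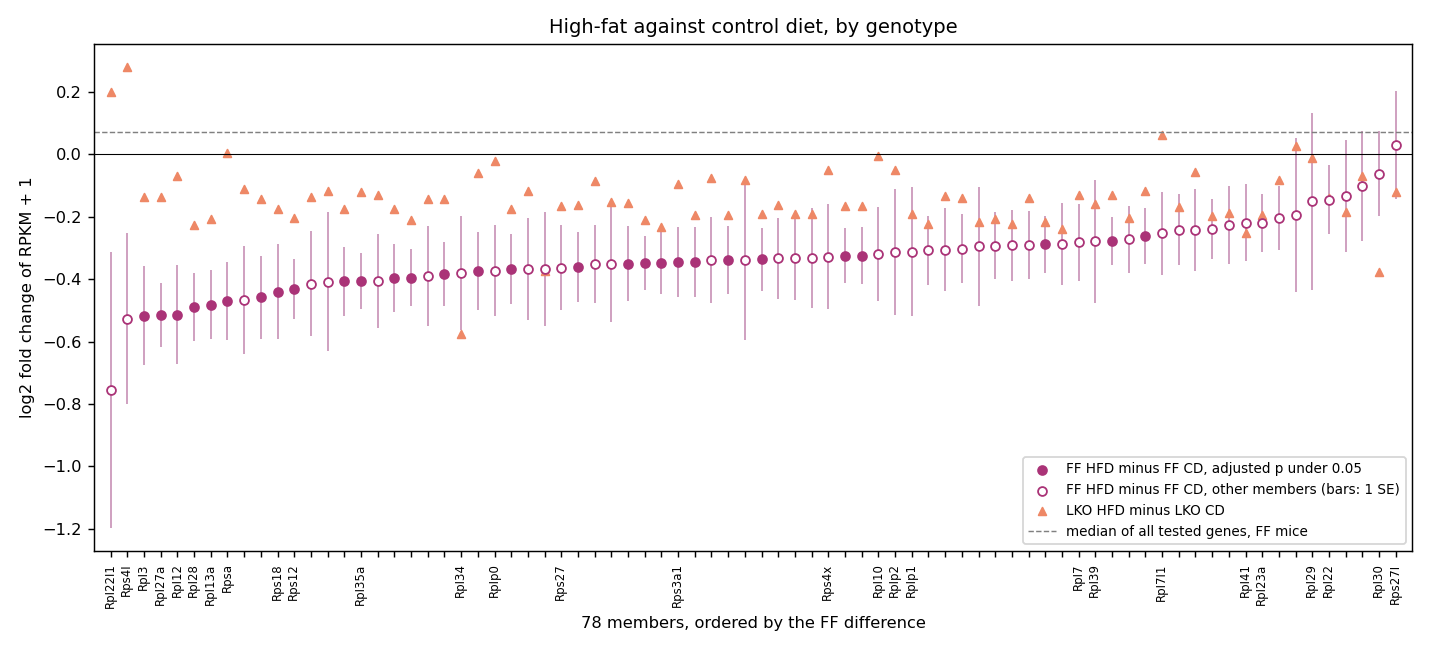
Log2 fold change of RPKM + 1 between HFD and CD for 78 members, ordered by the FF difference and labelled where the text names them. Circles are FF mice, filled at an adjusted p under 0.05, with bars of 1 SE; triangles are LKO mice. The FF estimates run from -0.75 (Rpl22l1) to 0.03 (Rps27l), below the dashed line at the median of all tested genes, 0.07.

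The difference between those responses was tested as an interaction, and no member passed the adjusted p (all genes 2.97% in either direction). At an unadjusted p under 0.05, 3 members were higher (3.70%, all genes 7.1%). They were Rpsa, the laminin receptor and 40S protein, with an interaction of 0.47 (SE 0.18, adjusted p = 0.175), Rpl27a with 0.38 (SE 0.14, adjusted p = 0.190) and Rpl35a with 0.28 (SE 0.13, adjusted p = 0.265). For 6 of 81 members the interaction was below 0 (all genes 51.3%), and the median was 0.17 against -0.01 over all tested genes, or 0.10 without LKO HFD mouse 2. The interactions of Rpl22l1, 0.95 (SE 0.63), and Rps4l, 0.81 (SE 0.39), were the largest estimates, and neither passed (adjusted p = 0.478 and 0.307). A smaller response in LKO mice was therefore not shown for any single member.

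Between the genotypes on HFD, no member passed the adjusted p (all genes 4.2% in either direction) or the fold as well (2.07%). The estimate was below 0 for 2 of 81 members (all genes 42.6%), and the median was 0.18 against 0.03 over all tested genes. Without LKO HFD mouse 2 or FF HFD mouse 3 the median was 0.10. At an unadjusted p under 0.05, 11 members (13.6%) were higher in LKO HFD, near the 11.2% of all tested genes. Rpl12 was at 117 ± 15.5 RPKM (SD, n = 5) in LKO HFD and 91.3 ± 15.6 (SD, n = 5) in FF HFD, with a log2 difference of 0.36 (SE 0.15, adjusted p = 0.198). Rpl28 differed by 0.27 (SE 0.10, adjusted p = 0.152). Rpl22l1 had the largest estimate, 0.43 (SE 0.42), and the 2 members below 0 were Rpl34, at -0.14 (SE 0.17), and Rps27l, at -0.04 (SE 0.16). No member had all LKO HFD mice above all FF HFD mice (all genes 2.65%). The comparison shares the FF HFD mice with the comparison of diets in FF mice.

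Between the genotypes on CD, no member passed the adjusted p (all genes 0.234%). At an unadjusted p under 0.05, 1 of 81 passed (1.23%, all genes 7.67%), Rpl30, at 0.32 (SE 0.14, adjusted p = 0.609), of which LKO CD mouse 1 was the highest. The estimate was below 0 for 46 members (all genes 38.3%), and the median was -0.01 against 0.03, from -0.07 without LKO CD mouse 1 to 0.06 without LKO CD mouse 3. The largest falls were of Rpl22l1, at -0.52 (SE 0.47), and Rps4l, at -0.47 (SE 0.29), and the next of the rises was Rpl23a, at 0.16 (SE 0.10). None of these 3 passed.

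Members with and without the start-site run had similar medians. In FF mice the 33 members with a run near the start had a median log2 change of -0.35, with 14 of 33 lower at the adjusted p (all genes 4.79%). The 27 without it had a median of -0.32, with 11 of 27 lower. The 11 with the run exactly at the start had a median of -0.38 with 6 lower. The other 177 tested genes with a run exactly at the start had a median of 0.08, with 27 higher and 5 lower. These are near the values over all tested genes (median 0.07, 15.8% higher and 4.79% lower). Rpl28, Rpl27a and Rps18, whose letters are printed above, all hold a run. Rps27l, which did not pass the test, has 2 start sites in RefSeq, of which 1 holds a run. The 907 tested genes with transcripts under 1000 bases had a median of 0.03, with 97 higher (all genes 15.8%) and 62 lower (all genes 4.79%).

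Genes of related functions were compared from lists made with earlier results of these data known, and the genes named from them were chosen after their values were seen. The list of ribosome biogenesis held 46 genes, which make and assemble ribosomal RNA and proteins in the nucleolus. In FF mice on HFD, 8 were lower (all genes 4.79%) and 0 higher (all genes 15.8%), at a median of -0.12. Those 8 included Fbl, the RNA methyltransferase fibrillarin (-0.30), Nop56 (-0.38) and Nop58 (-0.43), its partners in the same particle. In LKO mice 0 of the 46 passed (all genes 4.05% in either direction) and the median was 0.06. Between the genotypes on HFD the median was 0.17, and 2 of the 46 passed, near the share of all genes (4.2% in either direction). Ltv1, needed for 40S assembly, was higher in LKO HFD at 0.36 (adjusted p = 0.0109). Heatr1, needed for transcription of ribosomal RNA, was higher at 0.30 (adjusted p = 0.0460). Heatr1 also had an interaction of 0.53 (adjusted p = 0.0263), as 1 of the 46 to pass there (all genes 2.97% in either direction).

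Of 5 listed genes of ribosomal proteins that the symbol rule leaves out, 4 were tested. All 4 estimates were below 0 in FF mice, at a median of -0.28, and Rpl36al, at -0.30, passed the test (adjusted p = 0.0272). The 25 tested translation factors and other mRNAs known for the pyrimidine tract had a median of -0.13, with 0 lower and 2 higher, Vim and Nap1l1. Vim, which encodes vimentin, a filament of mesenchymal cells, was at 0.78 (adjusted p = 0.0110). The 23 tested genes around mTORC1 had a median of 0.10, close to the 0.07 of all tested genes, with 3 higher, Mtor, Mlst8 and Sesn2, and 2 lower, Deptor and the S6 kinase Rps6kb1. Of all tested genes, 15.8% were higher and 4.79% lower in FF mice. In LKO mice on HFD, 1 of the 23 passed, Eif4ebp2, which was higher at 0.85 (adjusted p = 0.0418, all genes 4.05% in either direction). Between the genotypes on HFD, 1 of the 25 passed, Vim, which was lower in LKO mice at -0.72 (adjusted p = 0.0420, all genes 4.2% in either direction).

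Mitochondrial ribosomal proteins, which make up the separate ribosome of mitochondria, had a median near 0. Over 78 of them it was -0.001 in FF mice, with 1 higher (all genes 15.8%) and 0 lower (all genes 4.79%). The 73 tested nuclear-encoded subunits of the respiratory chain had a median of 0.02 in FF mice, with 1 higher (all genes 15.8%) and 31 estimates below 0 (all genes 36.8%). In LKO mice the median was -0.23, with all 73 below 0 (all genes 34.2%). There 2 were lower, Ndufa5 (-0.38) and Ndufa6 (-0.36), both subunits of complex I, as were 67 of the 11090 tested genes. The interaction was below 0 for all 73 (all genes 51.3%), with none past the test. On HFD, 72 of these 73 were below 0 in LKO against FF mice (all genes 42.6%), at a median of -0.13 with none past the test. On CD, 1 of the 73 was below 0 in LKO against FF mice (all genes 38.3%), at a median of 0.11, also with none past the test. The 14 proteasome core genes had medians of -0.01 in FF and -0.09 in LKO mice, with none past the test.

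**Figure D5:**
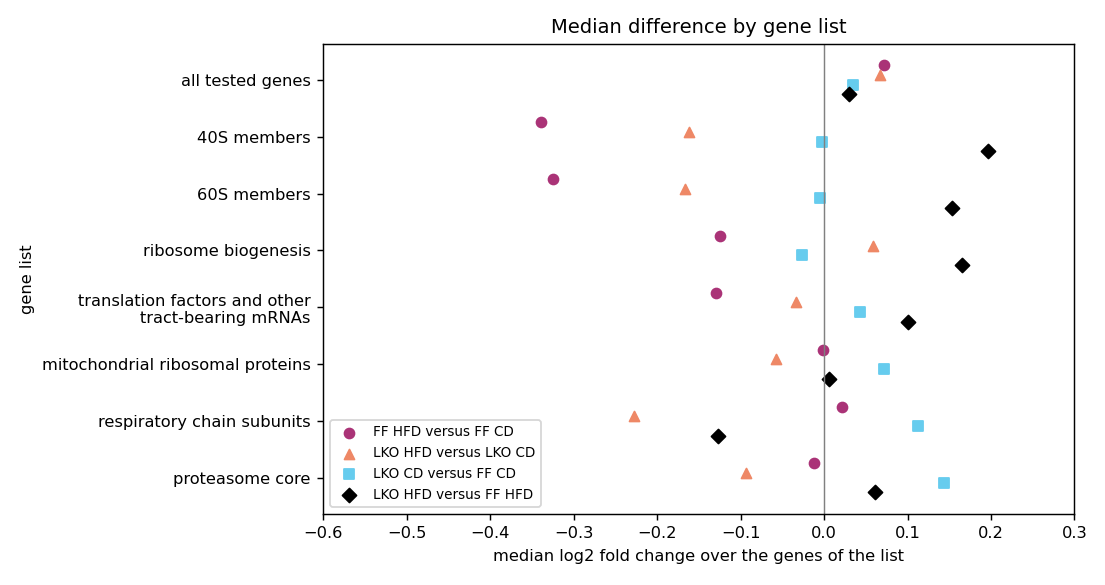
Median log2 fold change over the genes of each list (rows) in 4 comparisons (symbols), with all tested genes at the top. The 40S and 60S members have medians of -0.34 and -0.32 in FF mice on HFD, against 0.07 for all tested genes, while the mitochondrial ribosomal proteins lie at -0.001.

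Marker sums of other cell types differed in part by diet. The summed RPKM of 5 sinusoidal endothelial markers was 12.4 to 26.6 in FF CD, 9.90 to 28.8 in LKO CD, 32.9 to 52.7 in FF HFD and 25.0 to 35.8 in LKO HFD. That of 6 Kupffer cell markers was 40.3 to 59.9 in FF CD, 34.8 to 56.7 in LKO CD, 50.7 to 98.3 in FF HFD and 49.8 to 95.7 in LKO HFD. The 8 hepatocyte markers summed to 35838 to 43674 in FF CD, 42252 to 53637 in LKO CD, 38394 to 48448 in FF HFD and 40241 to 46895 in LKO HFD, and 8 lymphocyte markers to 1.45 to 5.10 in all mice. The part of these shifts in the results above was not tested.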

How the data were processed

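The authors deposited RPKM values, 1 table per mouse, made with HISAT2 2.0.4, mm10 and Partek according to the submitters' processing notes; counting, annotation and strand are not given in the sources used here. The labels name both a small RNA kit and standard RNA-seq for the libraries. Values were used as deposited. The members, lists and tests were chosen with earlier results of these data known. Differences were fitted with limma 3.58.1 (R 4.3.3, a trended eBayes) on log2(RPKM + 1) with 1 coefficient per group over 18 mice, two-sided, with Benjamini-Hochberg adjustment over 11090 genes of mean RPKM of at least 0.5. This scale understates changes of low genes. The labels give separate mice but no litters or batches. The steps were tested on simulated data. Positions and lengths came from GENCODE vM21 for the same build as mm10, with 24417 symbols matched, and 80 of 81 members had a length. Depth, read from steps of 1 read in single-exon genes, covers counting error only. Members were named if past both limits, among the 2 largest rises and falls of a pairwise comparison, the 5 most abundant, the 3 nearest the RPKM limit, paralogs with partners, or the stalk; others are named as chosen after their values were seen. Alternatives covered the pseudocount, filters, scaling, transcript length, groups fitted, a replicate block and leaving out each mouse; counts at the adjusted p alone were added after seeing the data. A few genes are not reported here by name and were left out of the plots by gene, but stayed in all counts and medians.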

Additional observations from a re-analysis of the deposited data

Results flagged for a closer look

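Within groups, 4 values stood apart from the rest of their group by Dixon's criterion, among 120 groups of values examined (about 1 in 20 would by chance). Rpl39 in FF CD mouse 4 was 105 RPKM, against 151.05 to 158 in the other FF CD mice. Rps27l in the same mouse was 107 RPKM, against 159 to 167. Rpl28 in LKO CD mouse 2 was 290 RPKM, against 329 to 334. Rps4l in LKO HFD mouse 2 was 16.9 RPKM, against 5.54 to 8.08.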

How the results depend on the processing

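Without 1 mouse at a time, the number of members lower in FF mice on HFD at the adjusted p alone ran from 12 to 42 (30 with all mice), and the number past the fold as well from 0 to 1. The former was 12 without FF CD mouse 3 (all genes 2.78%), 17 without FF HFD mouse 4 (3.75%), 19 without FF HFD mouse 3 (3.45%) and 42 without FF HFD mouse 1 (4.96%). After centring on the median, quantile normalization and removal of a length trend, the former was 60, 49 and 63, while 11.3%, 12.5% and 12.9% of all tested genes were lower against 4.79% as reported, and the number past the fold as well was 3 with centring and 3 without the length trend. With every mouse scaled to the same summed RPKM, 22 members were lower in FF mice on HFD at the adjusted p alone (all genes 3.71%). With only the compared groups fitted, 24 were (all genes 3.86%). In LKO mice on HFD 2 members were lower at the adjusted p after centring and 1 after quantile normalization. In LKO against FF mice on HFD 2 were higher after quantile normalization and 1 without the length trend, and 1 interaction was above 0 under each. Shares of all tested genes called higher were not computed for these settings, so these few calls have no background to set them against. Median changes kept their sign in FF mice on HFD (-0.43 to -0.25 over other settings), LKO mice on HFD (-0.26 to -0.11), LKO against FF on HFD (0.12 to 0.20) and the interaction (0.10 to 0.22); between genotypes on CD they ran from -0.04 to 0.01. Without 1 mouse at a time they ran from -0.38 to -0.26, -0.24 to -0.11, 0.10 to 0.21, 0.10 to 0.22 and -0.07 to 0.06 in the same order, with 0.10 for LKO against FF on HFD without LKO HFD mouse 2 or FF HFD mouse 3, 0.10 for the interaction without LKO HFD mouse 2, and -0.11 in LKO mice on HFD without LKO CD mouse 1. Of the 5 named members past the adjusted p, Rpl28 passed in all 27 alternatives, Rpl3 missed in 2, Rpl12 and Rps3a1 in 5 each and Rps18 in 12; none reversed. The deviations of same-numbered mice correlated at r from -0.17 to 0.33 over 25 pairs, 10 above 0.1. Mice with different numbers were not compared, so these values cannot decide whether the numbers pair mice. With the replicate block, 36 members were lower in FF mice on HFD (all genes 4.39%) and 1 in LKO mice on HFD (all genes 0.794%), the latter past the fold as well. Depth limits the low members most, with Rpl34 at about 38 reads per mouse.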
